A study of Caenorhabditis elegans with 28 samples.

Results

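LAG-1 and the GLP-1 Notch protein, both tagged members of the Caenorhabditis elegans Notch pathway, were compared by the places on the genome where chromatin immunoprecipitation followed by sequencing found them. The comparison rests on the peak lists of 8 of the 28 samples, the 4 LAG-1 immunoprecipitates with replicate letters a, b, c and e and the 4 Notch immunoprecipitates with letters a, b, c and d. They were chosen by the sample titles, and the 6 immunoprecipitates of tagged GFP control worms served as background. All 14 immunoprecipitates came from whole worms of the last larval stage (L4) grown at 20 °C. LAG-1 carried its tag at the N-terminus in strain pJK1689, GLP-1 at the C-terminus in strain pJK1662, and the control strain pJK1728 carried Flag- and Myc-tagged GFP. Alleles, promoters and the state of the endogenous genes were not stated in the labels. A Myc antibody is labelled for LAG-1 and Notch, and a Flag antibody for both the 3 Flag and the 3 Myc control libraries, so that the antibody of the Myc controls is uncertain.

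GLP-1 is the Notch receptor that keeps germline stem cells dividing in the worm gonad. When a neighbouring cell presents its ligand, the receptor is cleaved and the Notch intracellular domain moves to the nucleus, where it acts with LAG-1 and with the Mastermind-like protein LAG-3 (also called SEL-8). LAG-1 is the pathway's DNA-binding protein, of the CSL family, and the intracellular domain reaches DNA through it rather than by binding DNA itself. A C-terminal tag is carried by the uncleaved receptor as well as by the released domain. Chromatin of all tissues was pooled, so strong occupancy in a few cells and weak occupancy in many cannot be told apart. Sites are named by their ce10 coordinates and were not assigned to genes.

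The 4 LAG-1 libraries held 9.37 to 19.8 M tags and 505, 1533, 1085 and 1965 peaks, and the 4 Notch libraries held 4.58 to 14.9 M tags and 826, 44, 8261 and 302 peaks. Each list had been called by the authors against the library's own input at a false discovery rate of 0.01, and the control lists at 0.001. Notch c, the shallowest of the 8 libraries, had the longest list, and Notch b the shortest. The replicates are described as biological in the design text, and no 2 lists shared a peak with the same start and tag count. Peaks of the 8 lists that overlapped by at least 1 bp were merged into 12078 sites, of which 10649 had a peak in a single library. A site was called common when at least 2 LAG-1 and at least 2 Notch libraries had a peak there, and specific to a protein when at least 2 of its libraries and none of the other protein's had one.

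Peaks of LAG-1 and Notch were listed together at few sites, but Notch lists shared few peaks with each other too. With centres up to 250 bp apart, 16.4% of peaks of the shorter list were matched between Notch lists on average. Between the proteins it was 17.1% and between LAG-1 lists 59.2%. Every site with peaks in 3 or 4 Notch libraries also had a LAG-1 peak, but such sites were few. Among the common sites 9 had peaks in 3 Notch libraries and 5 in 4, and 1 further site with 3 had a peak in a single LAG-1 library. No LAG-1 peak was listed at 8901 sites with 1 Notch library and at 47 with 2. Tag counts of the proteins overlapped at the 2 leading common sites. At nearly all the others Notch tags were a smaller part of those at the leading common site than LAG-1 tags were. The median peak of the whole list was also a smaller part in every Notch library than in LAG-1 a, b and c. In LAG-1 e it was below that of Notch a. There were 30 common sites, 999 LAG-1-specific sites and 47 Notch-specific sites. A control library also had a peak at 60% of the common, 20.7% of the LAG-1-specific and 17.0% of the Notch-specific sites. A peak was present in all 8 libraries at 4 sites. The leading one by mean percentile, common site 1 at I:12483617-12483981, ranked among the first 5 by tag count in every list.

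Common site 1 had normalized tag counts, the authors' signal per 10 M tags, of 1800.3, 2618.2, 1050.2 and 4158.8 in LAG-1 a, b, c and e. The Notch libraries a to d had 1471.9, 3680.7, 3064.7 and 3928.4 there. The ranges of the proteins overlapped, and the peak ranked 3, 1, 1 and 1 in the LAG-1 lists and 5, 1, 2 and 1 in the Notch lists. The authors' fold over input was 70.1 ± 30.02 for LAG-1 and 115.7 ± 34.7 for Notch (SD, n = 4 each). Peaks at this site were also listed for Myc controls a, c and d, with folds of 5.89, 10.47 and 8.37, and for none of the Flag controls. Close to it, Flag control c had a peak 1019 bp away with a fold of 15.34 and a focus ratio of 0.583, and Myc controls a and c had peaks 1543 and 2030 bp away with folds of 9.85 and 9.81. The part of these neighbours in the values of site 1 was not tested.

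Common site 2, V:11770129-11770490, had tag counts of 835.5, 1311.9, 514.0 and 1296.2 in LAG-1 a, b, c and e and of 748.6, 1636.2, 1433.1 and 1757.6 in Notch a to d. As at site 1, the tag counts of the proteins overlapped. The peak ranked between 5 and 6 in the LAG-1 lists and between 2 and 6 in the Notch lists. The folds did not overlap, with 14.89 to 35.5 over input for LAG-1 against 37.17 to 65.32 for Notch, and 10.74 to 17.63 over the local background against 24.98 to 32.71. Folds of different libraries also depend on their enrichment and on how the input was scaled. Myc control c held a peak there with a fold of 5.34.

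Common site 3, IV:16656221-16656635, had no peak in any control. Its tag counts were 571.2, 857.1, 345.6 and 1070.9 in the LAG-1 libraries and 119.3, 381.5, 165.8 and 333.0 in Notch a to d. It ranked 13, 9, 16 and 13 in the LAG-1 lists and 37, 7, 845 and 10 in the Notch lists. Common site 4, III:10758760-10759321, had LAG-1 tag counts of 457.1, 621.1, 228.0 and 853.1 and Notch tag counts of 127.0, 211.9, 148.3 and 214.6. All 4 Notch libraries were below all 4 LAG-1 libraries at site 4, and 3 of the 4 Notch libraries were below every LAG-1 library at site 3. Flag control b and Myc control a held peaks at site 4, with folds over input of 4.36 and 4.14. The folds there were 4.20 to 7.31 in the Notch libraries and 6.36 to 28.15 in the LAG-1 libraries.

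**Figure D1:**
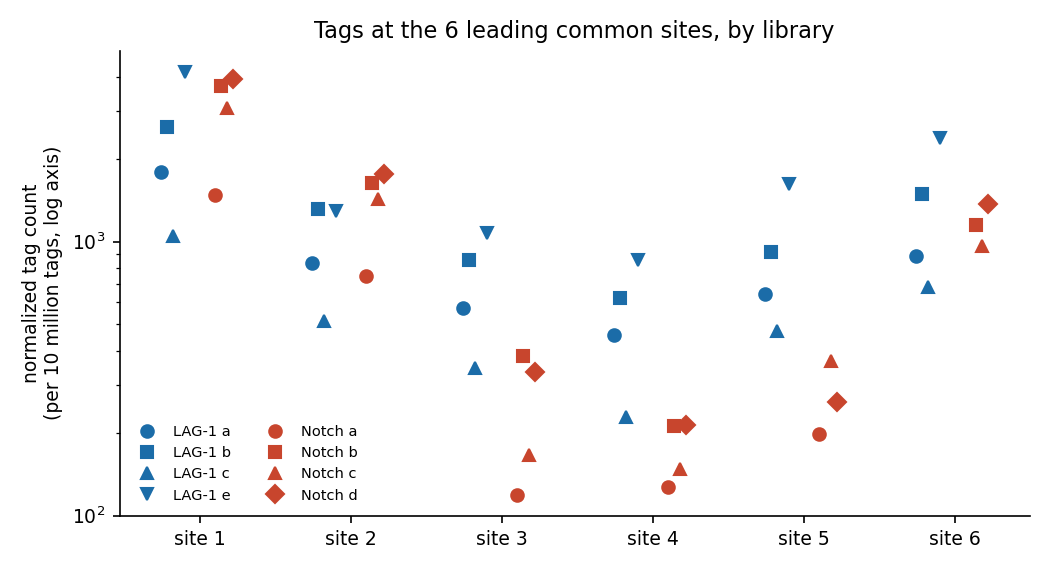
Normalized tag count (per 10 M tags, log axis) at the first 6 common sites, one point per library, LAG-1 in blue and Notch in red, with the marker shape giving the replicate letter and no point where a library had no peak. The proteins overlap at sites 1 and 2, where Notch reaches 3928.4 and 1757.6, and all Notch points lie below all LAG-1 points at sites 4 and 5.

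Tag counts of different libraries depend on their depth and enrichment, but the ratio of 2 sites within one library does not depend on how that library was scaled. Taken as a percent of site 1 in the same library, site 2 stood at 46.4, 50.1, 48.9 and 31.2% in LAG-1 a, b, c and e and at 50.9, 44.5, 46.8 and 44.7% in Notch a to d. The difference of the log2 ratios, LAG-1 minus Notch, was -0.10 (exact permutation p = 0.8, two-sided). Site 3 stood at 31.7, 32.7, 32.9 and 25.8% in the LAG-1 libraries and at 8.11, 10.4, 5.41 and 8.48% in the Notch libraries. Site 4 stood at 25.4, 23.7, 21.7 and 20.5% with LAG-1 and at 8.63, 5.76, 4.84 and 5.46% with Notch. The proteins thus overlapped at site 2 and did not at sites 3 and 4.

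On the log2 scale the tag count of site 3 relative to site 1 was -1.71 ± 0.17 for LAG-1 and -3.67 ± 0.39 for Notch (SD, n = 4 each), a difference of 1.96 (exact permutation p = 0.0286, two-sided). Site 4 gave -2.14 ± 0.14 and -4.05 ± 0.36, a difference of 1.92 (exact permutation p = 0.0286, two-sided). This is the smallest exact permutation p that 4 libraries against 4 allow, and neither difference passed Benjamini-Hochberg adjustment over the 29 sites compared with site 1 in this way (adjusted p = 0.166). The comparison with site 1 was chosen after the tag counts had been seen. With the authors' fold over the local background in place of tags the difference at site 3 was 0.98 (exact permutation p = 0.0857) and at site 4 it was 1.10 (exact permutation p = 0.0286).

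Over the 29 other common sites, the LAG-1 mean relative to site 1 was above the Notch mean at 28, with a median difference of 1.41 on the log2 scale and a highest of 2.58. At 26 of the 29 sites (89.7%) every LAG-1 library with a peak lay above every Notch library with a peak, and at 0 (0%) the reverse held. The 3 exceptions were sites 2, 21 and 27. The 29 differences share site 1 and are therefore not independent, and with site 2 as the reference the LAG-1 mean was above the Notch mean at 28 of 28 sites, by 0.75 to 2.69. A library without a peak gives no value, so that the ratios describe called peaks. The median of all peaks in a list stood at 10.6, 7.82, 13.2 and 5.60% of site 1 in LAG-1 a, b, c and e. In Notch a to d it stood at 5.70, 3.74, 3.99 and 3.14%. Lower Notch values relative to site 1 were thus not particular to the common sites, and a difference beyond that of the whole lists was not tested.

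Common site 6, I:10588173-10588509, had the next highest tag counts in the Notch libraries that held it. Its tag counts were 881.8, 1484.8, 681.4 and 2390.7 in the LAG-1 libraries and 1148.0, 964.1 and 1369.1 in Notch b, c and d, which is 49.0 to 64.9% of site 1 with LAG-1 and 31.2 to 34.9% with Notch. No control had a peak at site 6 itself. Within 6 kb of it, however, 3 Notch libraries, LAG-1 b, 2 Flag and 2 Myc controls listed peaks of low focus ratio, such as one in Myc control a with a fold of 273.59 and a focus ratio of 0.572, and their part in the values of site 6 was not tested.

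Apart from sites 2 and 6, Notch peaks at common sites held 2.63 to 15% of the tags of site 1 (median 5.19%), and LAG-1 peaks 5.88 to 45.0% (median 17.2%). Site 5, III:3867395-3867752, for example, stood at 35.8, 34.95, 45.0 and 39.0% in the LAG-1 libraries and at 13.4, 12.0 and 6.63% in Notch a, c and d. Site 8, III:7854454-7854831, stood at 29.6 to 42.9% with LAG-1 and at 5.08 to 6.90% in Notch a, b and d. Both sites ranked among the first 13 of every LAG-1 list, and between 8 and 129 in the Notch lists that held them. Flag control b and Myc control c held peaks at site 5, with folds over input of 4.51 and 4.88, and 1 Myc control held a peak at site 8.

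Percentiles within a list, where 100 is the highest tag count, are another measure that does not rest on the scaling between libraries. They do depend on list length. At site 2, rank 5 among the 44 peaks of Notch b was percentile 89.8, and rank 4 among the 8261 of Notch c was 99.96. The median percentile of peaks at common sites was 87.6, 95.6, 96.7 and 95.6 in LAG-1 a, b, c and e and 91.8, 73.9, 86.4 and 94.4 in Notch a to d. The means were 93.9 ± 4.22 and 86.6 ± 9.12 (SD, n = 4 each), and the difference of 7.31 percentile points was within what relabelling of the libraries gives (two-sided exact permutation p = 0.171, p = 0.686 when adjusted over 8 tests). Ranking by fold over input instead gave a difference of 26.2 points (exact permutation p = 0.0286), ranking among peaks of common and specific sites 26.5 points (exact permutation p = 0.0286), and requiring 3 libraries of each protein 8.72 points (exact permutation p = 0.0286). Ranking by the authors' peak score gave 3.28 points (exact permutation p = 0.743). Leaving out one library gave 3.93 to 11.3 points.

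At 7 common sites both proteins averaged a percentile of at least 90, while LAG-1 did so at 15 sites and Notch at 10. The percentile ranges of the proteins did not overlap at 8 of 30 sites (26.7%), with LAG-1 above at 5 (16.7%) and Notch above at 3 (10%). At 16 of the 30 sites only 2 Notch libraries had a peak, and ranges of so few values can fail to overlap under relabelling alone.

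The order of the common sites was compared between libraries by rank correlation. Spearman's rho of percentiles over shared common sites averaged 0.926 for the 6 pairs of LAG-1 libraries (0.853 to 0.968), 0.675 for the 6 pairs of Notch libraries (0.344 to 0.852) and 0.613 for the 16 pairs between the proteins (0.378 to 0.853). These values describe 10 to 29 sites a pair, chosen because both proteins had peaks there, and libraries recur in several pairs. Between the mean percentiles of the proteins over the 30 sites rho was 0.50, and over the 26 sites left without the 4 present in all 8 libraries it was 0.316.

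**Figure D2:**
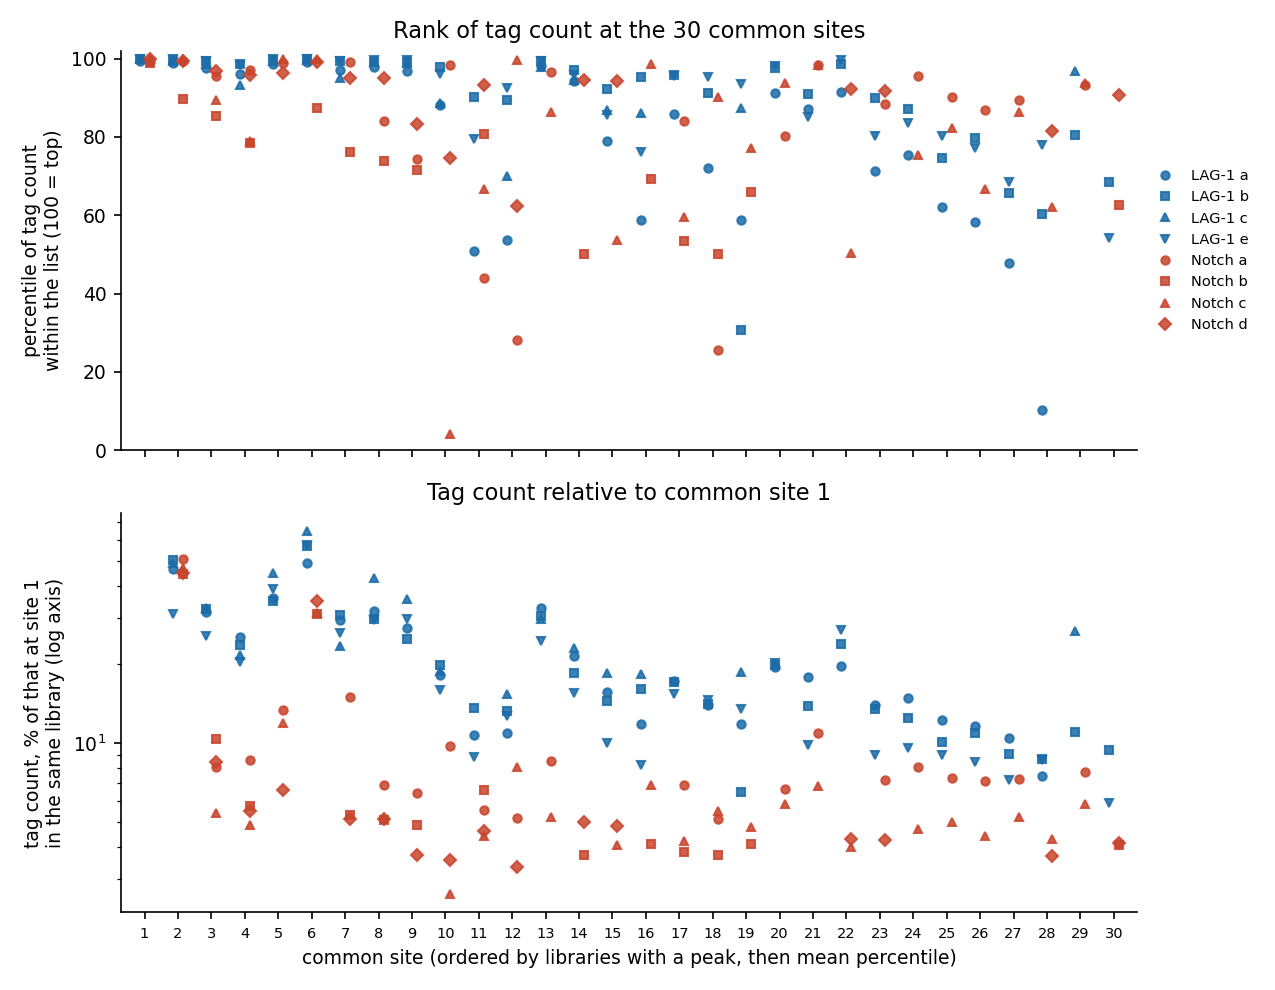
Upper panel, percentile of each peak's tag count within its own list (100 = top) at the 30 common sites, and lower panel, tag count as a percent of that at common site 1 in the same library (log axis), one point per library with a peak, LAG-1 in blue and Notch in red. In the lower panel the Notch points lie between 2.63 and 15% at all sites but 2 and 6, below the LAG-1 points at 26 of 29 sites.

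The common sites where the proteins ranked most differently were not alike in both directions. LAG-1 ranked above Notch by the most at site 10, II:14561577-14561988, with percentiles of 88.2, 97.8, 88.6 and 96.1 against 98.2, 4.19 and 74.5 in Notch a, c and d. Here Notch a was as high as LAG-1, and Notch c, whose peak ranked 7878 in its list, was far lower. Site 22, IV:7958197-7958655, had percentiles of 91.5, 98.7 and 99.5 in LAG-1 a, b and e against 50.2 and 92.2 in Notch c and d. Notch ranked above LAG-1 by the most at site 27, X:806495-806848, with percentiles of 89.5 and 86.4 in Notch a and c against 47.9, 65.6 and 68.4 in LAG-1 a, b and e. At site 27 the 2 Notch libraries lay above the 3 LAG-1 libraries, although the tag counts themselves were 107.1 and 159.2 with Notch and 188.4 to 301.1 with LAG-1. The X chromosome held 7 of the 30 common sites (23.3%), 14.1% of the LAG-1-specific, 10.6% of the Notch-specific and 16.3% of the remaining merged sites. A Myc control had a peak at 6 of the 7 common sites on X. LAG-1 c had a peak at 1 and Notch b at 0 of these 7.

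The next question was how much of the rest of each protein's list was free of the other. Of the 207 sites with a peak in all 4 LAG-1 libraries, 146 (70.5%) had no Notch peak and 45 had one in a single Notch library. Peaks in 2, 3 or 4 Notch libraries were found at 5, 7 and 4 of them. The median LAG-1 percentile was 79.06, 82.5, 85.9, 98.6 and 99.09 at the sites with 0, 1, 2, 3 and 4 Notch libraries, so the sites with more Notch libraries were higher in the LAG-1 lists. Among the common sites the median LAG-1 percentile was also higher at the 18 with a control peak (92.6) than at the 12 without (82.6). Fisher's exact test of presence called 146 of the 12078 sites (1.21%) as more often LAG-1 at an unadjusted p under 0.05 and 0 (0%) as more often Notch. In 4 against 4 libraries this test can call only sites with a peak in all libraries of one protein and in none of the other. The 146 are therefore the same sites as above and no further evidence. The Notch count is bounded by the 44 peaks of Notch b. After Benjamini-Hochberg adjustment over all sites 0 sites (0%) passed, since the smallest unadjusted p that 4 against 4 libraries allow is 0.0286. Without LAG-1 a or LAG-1 c the count at an unadjusted p under 0.05 was 222 and 313 sites.

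A further 192 sites had peaks in at least 2 LAG-1 libraries and exactly 1 Notch library, which was Notch c at 152, Notch a at 28, Notch d at 7 and Notch b at 5. The number of common sites was 17 without Notch c and between 21 and 30 without any other library. LAG-1-specific sites numbered 479 without LAG-1 b and 455 without LAG-1 e. Notch-specific sites numbered 15, 5 and 31 without Notch a, c or d.

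The 2 highest LAG-1-specific sites had mean LAG-1 tag counts of 1421 and 946.6, and the third had 601.4. Common site 1 had 2407, common sites 2 to 5 had 539.8 to 989.4 and common site 6 had 1360. III:9793659-9794000 had tag counts of 1038.5, 1669.3, 848.9 and 2125.9 in LAG-1 a, b, c and e, which is 63.3 ± 12.7% of site 1 (SD, n = 4), and no peak in any Notch or control library. The nearest Notch peak centre was 966.5 bp away. III:6344658-6345024, also without a Notch or control peak, stood at 44.9 ± 16.9% of site 1 (SD, n = 4), and its tag counts were 657.3, 1223.6, 710.8 and 1194.8. I:11977817-11978147 stood at 27.6 ± 8.30% (SD, n = 4). All 3 sites were high in each of the 4 LAG-1 libraries. The lowest tag count listed in Notch a, b, c and d was 2.40, 1.22, 1.64 and 1.25% of that library's site 1. Whether a peak is listed depends also on the folds over input and the local background, so these values set no upper limit on Notch tags at these sites.

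All 47 Notch-specific sites had a peak in exactly 2 Notch libraries, and none in 3. Notch c took part in 42 of them, Notch a in 32, Notch d in 16 and Notch b in 4. The first 2 by percentile, I:132085-132525 and I:133252-133565, lay side by side with tag counts of 6498.2 and 6555.6 in Notch a and 2750.6 and 2507.2 in Notch b. Their folds were 101.11 to 176.93, their focus ratios 0.537 to 0.606, and each also had peaks in 2 Myc control libraries. In Myc control a these peaks had tag counts of 8522.3 and 8414.4 and folds of 463.33 and 440.2, above the values of both Notch libraries. In Myc control c the folds were 19.47 and 13.62. High signal at these 2 sites was thus not particular to Notch. The next, II:8411650-8412035, had no control peak and tag counts of 123.7 in Notch a and 183.2 in Notch c, with focus ratios of 0.748 and 0.838. Control peaks lay at 18 of the 30 common sites (60%), at 207 of the 999 LAG-1-specific sites (20.7%) and at 8 of the 47 Notch-specific sites (17.02%). At the common sites they came from a Myc control at 18 and from a Flag control at 6.

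Since the lists differ so much in length, nearness was read by share and by position in the list. A peak was taken as near the other protein when its centre lay within 100 bp of a peak centre in any of that protein's lists. Near LAG-1 lay 6.05, 45.5, 2.00 and 8.61% of peaks in Notch a, b, c and d, with a 95% Clopper-Pearson interval of 30.4 to 61.2% for the 20 of 44 peaks of Notch b. In the controls the shares were 7.09, 40 and 4.82% for Flag a, b and c and 2.34, 2.37 and 5.51% for Myc a, c and d. The Notch mean exceeded the control mean by 5.17 percentage points, which was not significant (two-sided exact permutation p = 0.41, p = 1 when adjusted). Leaving out Notch b made it -4.80 points, and leaving out Flag control b 11.1 points. Near Notch lay 15.4, 9.0, 6.82 and 7.74% of LAG-1 a, b, c and e peaks, against 2.21 to 22.2% of control peaks (difference 2.69 points, two-sided exact permutation p = 0.514, p = 1 when adjusted). Without Flag control b this difference was 5.73 points (exact permutation p = 0.0159). Against the Flag controls alone the differences were -1.77 points near LAG-1 (exact permutation p = 0.914) and -0.575 near Notch (exact permutation p = 0.971). Against the Myc controls alone they were 12.1 points (exact permutation p = 0.229) and 5.96 points (exact permutation p = 0.0571).

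In all 8 libraries nearness to the other protein was more frequent in the 20% of the list with the most tags than in the last 20%. In the top 20%, 17.6, 50, 3.75 and 38.3% of peaks in Notch a to d lay near LAG-1, and in the last 20% they were 0.602, 0, 1.21 and 0%. For LAG-1 a, b, c and e the shares near Notch were 25.7, 19.9, 18.0 and 15.5% in the top 20% and 9.90, 4.56, 1.84 and 5.09% in the last. In the top 20% of the 6 control lists 4.30 to 20% of peaks lay near LAG-1 and 3.18 to 22.2% near Notch, against 0 to 11.1% and 0 to 5.88% in their last 20%. The top 20% exceeded the last near LAG-1 in 5 of the 6 controls, Flag control b being the exception at 11.1% in both, and near Notch in all 6. Between targets and controls the top-20% differences were 15.5 points (exact permutation p = 0.181) and 9.90 points (exact permutation p = 0.0762). Taking the 44 peaks with the most tags from every list compares equal numbers of peaks, but unequal parts of the lists. They were all peaks of Notch b, and came from 45 to 127 peaks in the Flag controls and Myc control d. In the LAG-1 lists they were the top of 505 to 1965 peaks. With this choice 8, 10, 7 and 11 of 44 peaks in Notch a to d lay near a LAG-1 peak of the same rank range, a mean of 20.5 ± 4.15% (SD, n = 4), against 8.33 ± 5.50% in the controls (SD, n = 6). The difference was 12.1 points (exact permutation p = 0.0286, two-sided), although Flag control b, with 8 of 44, equalled Notch a and exceeded Notch c. Seen from LAG-1, 16, 13, 9 and 12 of 44 peaks in a, b, c and e lay near Notch, a mean of 28.4 ± 6.56% (SD, n = 4) against 10.2 ± 6.22% in the controls (SD, n = 6). That difference was 18.2 points (exact permutation p = 0.00952, two-sided), the smallest p that 4 libraries against 6 allow. Every LAG-1 library had more such peaks than every control library, whose highest count was 8 of 44. The p-values of this alternative choice were not adjusted, and the control lists had been called at a stricter false discovery rate.

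**Figure D3:**
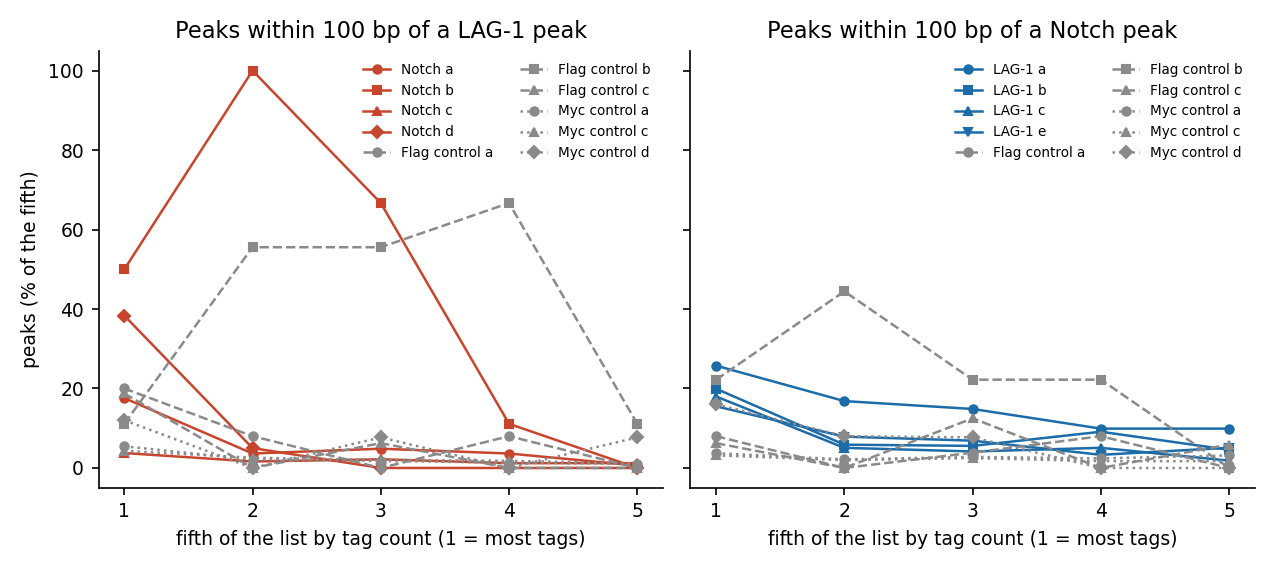
Percent of peaks whose centre lies within 100 bp of a LAG-1 peak (left) or of a Notch peak (right), in 5 equal steps down the list from most to fewest tags, for the LAG-1 (blue), Notch (red) and control libraries (grey, dashed for Flag and dotted for Myc). Notch d lies at 38.3% in its top 20% and 0% in its last 20%, Notch a at 17.6% and 0.602%, and Notch c at 3.75% and 1.21%.

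Where both proteins had a peak, no difference in centre distance between and within proteins was detected with these lists, and the size of the difference depended on the setting. Each peak of the shorter list was paired with the nearest centre of the other list, up to 250 bp away. The median distance averaged 39.2 ± 13.4 bp over the 6 pairs of LAG-1 libraries (SD), 50.9 ± 24.8 bp over the 16 pairs of a LAG-1 and a Notch library and 57.5 ± 14.7 bp over the 6 pairs of Notch libraries. Pairs within a protein minus pairs between proteins gave -2.57 bp (two-sided exact permutation p = 0.686, p = 1 when adjusted, with a smallest possible p of 0.0571 over 35 splits). The shares of peaks that could be matched were 59.2% within LAG-1, 16.4% within Notch and 17.1% between.

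The distances went with the library. Pairs of Notch c with a LAG-1 library had median distances of 81 to 99 bp, and pairs of Notch b with a LAG-1 library 27 to 30 bp. Without Notch c the mean between the proteins was 38.6 bp, next to 39.2 bp within LAG-1, and the difference was 5.47 bp. Without Notch b it was -10.96 bp. With a fold over input of at least 6 it was -14.98 bp, and with mean in place of median distances -9.35 bp (exact permutation p = 0.0571 each, the smallest that 35 splits allow), so that pairs between the proteins lay further apart there. Pairs of LAG-1 libraries that included LAG-1 c gave 47 to 55 bp and the other 3 pairs 23 to 30 bp.

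**Figure D4:**
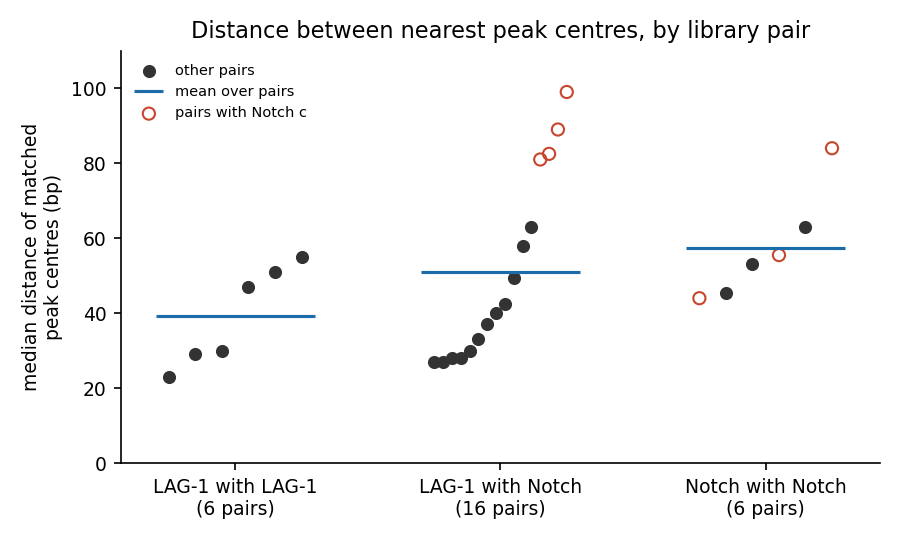
Median distance in bp between matched peak centres for each pair of libraries, grouped as LAG-1 with LAG-1, LAG-1 with Notch and Notch with Notch, with open red circles for pairs that include Notch c and a blue line at the mean over pairs. The 4 LAG-1 pairs with Notch c lie at 81 to 99 bp, and the 12 other pairs between the proteins at 27 to 63 bp.

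At the common sites the mean Notch centre was a median of 25.9 bp from the mean LAG-1 centre, with a range of 2.58 to 89.5 bp over the 30 sites. The offset was at most 20 bp at 11 sites, at most 50 bp at 25 and larger at 5. Centres of Notch libraries scattered more than those of LAG-1 libraries, with a median SD of 42.4 bp against 20.1 bp, and the Notch SD was the larger at 22 of 30 sites. At site 1 the Notch centre lay 23 bp towards higher coordinates, with SDs of 15 bp for LAG-1 and 7.37 bp for Notch. At site 6 the offset was 24.8 bp with SDs of 5.38 and 7.94 bp, and the centres of the 2 proteins did not overlap. The ranges of the centres did not overlap at 3 of 30 sites (10%), with the Notch centres at the higher coordinates at 2 (6.67%) and the LAG-1 centres at 1 (3.33%). Ranges of few centres can fail to overlap under relabelling alone, and 16 of the 30 sites had only 2 Notch libraries.

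The sites with the largest offsets were sites 25 and 4, at -89.5 and -83.8 bp, where the centres of the Notch libraries had SDs of 227.0 and 124.9 bp. Site 28, I:128113-128539, was different, with an offset of -80.2 bp and SDs of 24.2 bp for LAG-1 and 20.5 bp for Notch. The Notch centre had the higher coordinate at 21 of the 30 sites and the lower at 9, with a median signed offset of 16.4 bp. Over all matched peaks, not just those at common sites, the mean of the median offsets from the LAG-1 lists was 2, 11.5, 3.63 and 11.1 bp for Notch a to d. Measured in the same way it was -18.6, 6.75 and 15 bp for Flag controls a, b and c. For Myc controls a, c and d it was 2.63, 2.13 and -54.5 bp. The value of Flag control c rests on 1 LAG-1 list and that of Myc control d on 2.

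The focus ratio is the fraction of a peak's tags that lie on the side of the centre proper to their strand, and it is high for a sharp, point-like peak. Its median at common sites was 0.792, 0.800, 0.827 and 0.831 in LAG-1 a, b, c and e and 0.796, 0.782, 0.842 and 0.8235 in Notch a to d. The proteins overlapped, with a difference of 0.00163 (two-sided exact permutation p = 0.914, p = 1 when adjusted). At sites specific to the library's own protein the medians were 0.739, 0.742, 0.766 and 0.766 for LAG-1 and 0.772, 0.5595, 0.8475 and 0.776 for Notch, a difference of 0.0145 (exact permutation p = 1). The value for Notch b rests on 4 peaks, of which the 2 side by side on chromosome I have focus ratios of 0.543 and 0.548.

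The median focus ratio was higher at common than at protein-specific sites in 7 of 8 libraries, the exception being Notch c at -0.0055. Median tag percentiles were also higher at common sites, with 87.6 to 96.7 against 47.3 to 73.5 in the LAG-1 libraries. The same held in Notch a, c and d, but not in Notch b (73.9 against 88.6). Spearman's rho of focus ratio and tag count over a list was 0.213 and 0.178 in LAG-1 a and b and -0.0843 to 0.0153 in the others. The part of tag count in the focus difference was not tested. The mean difference was 0.0657 (two-sided exact sign-flip permutation p = 0.0156, p = 0.125 when adjusted over 8 tests), which did not pass after adjustment. It was 0.053 to 0.065 in the LAG-1 libraries and 0.024, 0.2225, -0.0055 and 0.0475 in Notch a to d. The difference between the proteins in this contrast was -0.0129 (exact permutation p = 1, two-sided), and leaving out Notch a, b or c made it 0.0243, 0.0492 or -0.0863. With a fold over input of at least 6, which left 6 common sites, the focus ratio at common sites, LAG-1 minus Notch, was -0.0485 (exact permutation p = 0.0286). The difference between common and specific sites was then 0.159 over the libraries with both kinds of site (exact sign-flip permutation p = 0.0312), and LAG-1 minus Notch in it -0.231 (exact permutation p = 0.133).

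**Figure D5:**
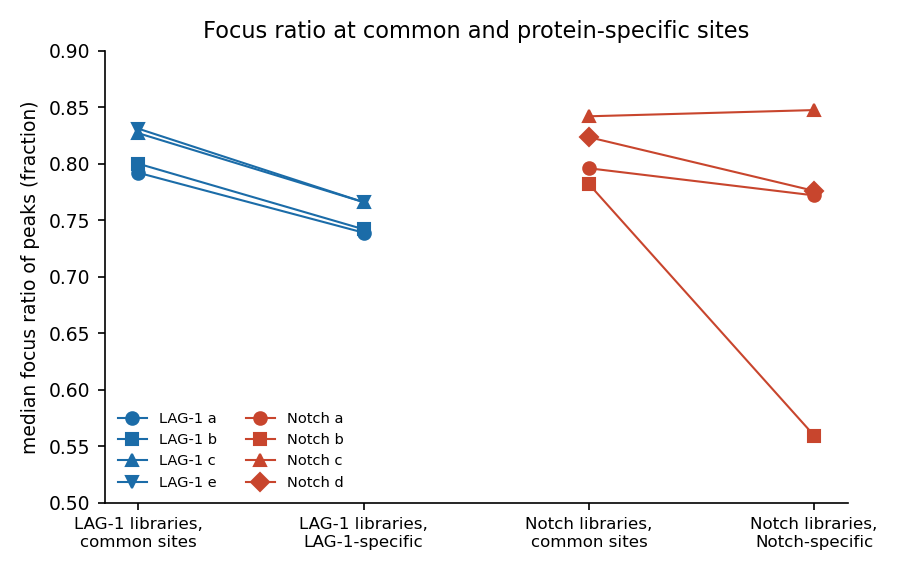
Median focus ratio (fraction) of peaks at common and at protein-specific sites for each library, LAG-1 on the left and Notch on the right, lines joining the values of one library. All 4 LAG-1 lines are lower at specific sites, by 0.053 to 0.065, and Notch b, with 4 specific peaks, goes from 0.782 to 0.5595.

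Focus ratios were also read site by site. The ranges of the proteins did not overlap at 8 of 30 sites (26.7%), with Notch above at 6 (20%) and LAG-1 above at 2 (6.67%). Sites 20, 21, 23 and 30 with Notch above and site 13 with LAG-1 above rest on 2 Notch peaks each. Ranges of so few peaks can fail to overlap under relabelling alone, and the number of sites to expect from it was not computed. At site 2 the focus ratios were 0.812, 0.805, 0.866 and 0.800 in the LAG-1 libraries and 0.925, 0.876, 0.927 and 0.885 in the Notch libraries. At site 6 they were 0.827 to 0.867 with LAG-1 and 0.883 to 0.912 with Notch. At both of these sites every Notch peak was more focused than every LAG-1 peak, whereas at site 1 the means were 0.891 ± 0.0328 and 0.888 ± 0.0131 (SD, n = 4 each). At site 3 the ranges overlapped, with 0.786 to 0.836 for LAG-1 and 0.633 to 0.807 for Notch. The 2 sites where every LAG-1 peak was the more focused were sites 13 and 18.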

How the data were processed

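The deposited peak lists of the 14 immunoprecipitates were analysed; inputs were used solely by the authors' caller. The submitters' processing notes name CASAVA 1.8, Bowtie, HOMER and build ce10, without other versions. HOMER worked library by library, per the file headers, with thresholds of 4-fold over the input and over the 10 kb around a peak, and a filter on peaks with 2-fold too few unique tag positions. In LAG-1 a and b the immunoprecipitate was scaled, in all others the input. Deposited per peak were a normalized tag count (signal per 10 M tags), fold over input and over the local background (ratios), and the focus ratio (a fraction), all computed by the authors. Total tags are counts in the deposited lists, except in LAG-1 a and b, where the authors rescaled them; peak scores computed by the authors' caller entered 1 alternative ranking, and the authors' p-values were not used.

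Percentiles were 100 times the rank, counted from the lowest tag count and less 0.5, over the list length. Groups came from sample titles. Tests were two-sided exact permutations of the library labels on means over libraries, with Benjamini-Hochberg adjustment over 8 tests (SciPy 1.17.1, pandas 2.3.3); splits of 4 against 4 allow no p below 0.0286. Procedures were tested on simulated peaks. Libraries held 3.13 to 19.8 M tags; intervals cover counting error only. Samples, members, sites and lists were chosen with earlier results of these data known. Named sites were the first 20 common sites, ordered by libraries with a peak and then mean percentile, the 5 with the largest offset and with the largest percentile difference in each direction, and the first 10 specific sites of each protein. Tag counts relative to site 1, the top 20% of lists, LAG-1 c with Notch c left out and autosomes alone were added after the values were seen. Other alternatives were a stricter fold, more libraries, centres within 100 bp, equal list lengths, other distance limits, 1 control group, other rankings, each library left out and a replicate block. Replicate letters were not taken as pairs. Genes and sequences were not analysed here.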

Additional observations from a re-analysis of the deposited data

Results flagged for a closer look

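Of 48 groups of 4 to 6 libraries checked for a value far from the rest, 5 held one, and chance alone gives about 1 in 20. LAG-1 a stood below the other LAG-1 libraries in the median percentile of its peaks at common sites, at 87.6 against 95.6 to 96.7. Notch c had 8261 peaks against 44 to 826 in the other Notch libraries. In Notch b 45.5% of peaks lay within 100 bp of a LAG-1 peak, against 2.00 to 8.61% in the other Notch libraries. Flag control b was apart from the other 5 controls in both directions, with 40% of its peaks near LAG-1 against 2.34 to 7.09%, and 22.2% near Notch against 2.21 to 6.30%. Notch b and Flag control b had the shortest lists of their groups, with 44 and 45 peaks, and the part of list length in these values was not tested.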

How the results depend on the processing

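Counts of sites moved most. With a fold over input of at least 6 there were 6 common, 536 LAG-1-specific and 4 Notch-specific sites, 50 sites were more often LAG-1 at an unadjusted p under 0.05, the share of peaks near Notch changed sign to -7.07 points, near LAG-1 it was 20.1, and the matched distance was -14.98 bp. The focus ratio then gave -0.0485 at common sites and 0.181 at specific sites, 0.159 for common minus specific, and -0.231 for that of LAG-1 minus Notch. Requiring 3 libraries of a protein left 14, 400 and 0 sites of the 3 kinds. The 44 peaks with the most tags of every list gave 9, 30 and 5, with share differences of 12.1 points near LAG-1 and 18.2 near Notch. Joining centres within 100 bp gave 26 Notch-specific sites and a focus difference at common sites of -0.00588. The difference in matched distance was 1.67 bp with pairs up to 100 bp and 2.25 bp without LAG-1 c and Notch c, against -1.15 bp with pairs up to 500 bp and -9.35 bp with mean distances. Against the Flag controls alone the share differences were -1.77 near LAG-1 and -0.575 near Notch, and against the Myc controls alone 12.1 and 5.96. The percentile difference was 26.2 points ranked by fold, 3.28 by peak score, 26.5 ranked among common and specific peaks and 8.72 with 3 libraries of each protein. At sites with no control peak the focus difference between common and specific sites was 0.0428 for LAG-1 minus Notch, and at specific sites -0.0425. Mean in place of median focus ratios gave -0.0181 at common and -0.000222 at specific sites. The cause of these changes was not tested.

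Leaving out 1 library gave 17 to 30 common, 455 to 1151 LAG-1-specific and 5 to 49 Notch-specific sites, and 148 to 313 sites by Fisher's exact test. The distance difference ranged from -10.96 to 5.47 bp, the share near LAG-1 from -4.80 to 11.1 points and near Notch from 0.796 to 5.73, and the percentile difference from 3.93 to 11.3. The focus ratio at common minus specific sites ranged from 0.0443 to 0.1155 over the libraries, from -0.0863 to 0.0492 for LAG-1 minus Notch, from -0.0116 to 0.0296 at common and from -0.0621 to 0.131 at specific sites. Relative to site 1 the log2 tag difference ranged from 1.78 to 2.09 at site 3, from 1.81 to 2.09 at site 4 and from -0.17 to 0.0554 at site 2 (without LAG-1 e); 3 libraries against 4 allow no exact permutation p below 0.0571.

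Deviations of same-letter libraries correlated at -0.165, 0.148 and 0.0598 for a, b and c. Pairs of different letters ranged from -0.573 to 0.431, so these values cannot decide whether libraries of one letter belong together. With a replicate block over these letters the focus difference at common sites was -0.000333 and the log2 tag difference 0.0355 at site 2, 2.08 at site 3 and 1.92 at site 4; 3 pairs allow no exact permutation p below 0.25. Tag counts of peaks below each list's lowest entry are unseen, so an absent peak sets no level.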
